A study of Mus musculus with 4 samples.

Results

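Olfactory receptor clusters are long runs of Olfr genes, each of which encodes an odorant receptor, and the CTCF peaks in and around them form the set described here. Autosomal Olfr genes of GENCODE M21 were chained where neighbouring starts lay at most 500 kb apart, and runs of at least 5 genes were kept, which gave 33 clusters on 14 chromosomes. A peak belonged to the set if its summit lay between the outer genes of a cluster (the interior) or within 200 kb beyond them (the flanks). Of the 42163 peaks in the conservative list, 507 met this rule, 147 in the interiors and 360 in the flanks. The rule used positions only, and motifs played no part in it. Every peak in the conservative list had, however, already passed a filter on reproducibility. Peak strength and presence in other lists therefore vary only among peaks that passed it. The clusters held 1345 of the 1399 autosomal Olfr genes, with 5 to 287 genes per cluster (median 23), and 1091 of these genes were annotated as protein-coding. The clusters were 0.0951 to 5.073 Mb long (median 0.562 Mb), and no cluster lay closer than 661.7 kb to the next.

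The assay was ChIP-seq, sequencing of DNA precipitated with an antibody, here to CTCF, from gastrocnemius (calf muscle) of adult female B6CASTF1/J mice aged 2 months. The 4 libraries were 2 technical replicates each of pool E and pool F, and each pool combined 2 muscle samples, so single animals cannot be told apart. Technical replicates were merged before peak calling, and 1 control alignment served both pools. The lists therefore carry no spread between technical replicates. B6CASTF1/J is a cross of C57BL/6J with CAST/EiJ, no allele was told from the other, and bulk muscle holds several cell types.

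Through its zinc fingers CTCF recognises a directional DNA motif, halts loop extrusion by cohesin and so anchors many chromosome loops and domain borders. Odorant receptors are G-protein-coupled receptors, and each olfactory sensory neuron expresses a single receptor allele from this very large family while the remaining clusters lie in heterochromatin. In tissues such as muscle the clusters are as a rule silent and rich in repeats, and they replicate late.

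The motif-bearing summits that lay nearest to the outer genes of the 5 largest clusters, on the flank side, are shown because they mark where CTCF begins beyond the receptor genes. The letters are RefSeq sequence of GRCm38 (mm10), 5′ to 3′ on the strand of the motif, with the match to the 14-base CTCF core consensus in capitals. The left flank of the cluster from Olfr543 to Olfr692 had no motif-bearing summit, so 9 edges are given. The window at the left edge on chromosome 10 is shortened because it overlaps an untranslated region.
Left edge of Olfr987 to Olfr1274-ps (chr2:85283952-85284005, minus strand): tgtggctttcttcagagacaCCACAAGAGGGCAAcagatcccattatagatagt
Right edge of Olfr987 to Olfr1274-ps (chr2:90474897-90474950, plus strand): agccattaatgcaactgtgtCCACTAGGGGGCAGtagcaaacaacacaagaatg
Right edge of Olfr543 to Olfr692 (chr7:105412060-105412113, plus strand): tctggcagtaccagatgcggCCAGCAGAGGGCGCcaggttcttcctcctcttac
Left edge of Olfr160 to Olfr986 (chr9:37690120-37690173, plus strand): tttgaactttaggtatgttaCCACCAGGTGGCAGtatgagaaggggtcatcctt
Right edge of Olfr160 to Olfr986 (chr9:40192663-40192716, minus strand): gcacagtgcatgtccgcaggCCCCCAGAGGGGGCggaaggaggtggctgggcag
Left edge of Olfr9 to Olfr827 (chr10:128977687-128977716, minus strand): ccctctatCCACTAGATGTCAGtagcagcc
Right edge of Olfr9 to Olfr827 (chr10:130228399-130228452, plus strand): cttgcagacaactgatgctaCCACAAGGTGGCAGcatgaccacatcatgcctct
Left edge of Olfr1417 to Olfr1505 (chr19:11820020-11820073, minus strand): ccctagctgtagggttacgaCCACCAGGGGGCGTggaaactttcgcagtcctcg
Right edge of Olfr1417 to Olfr1505 (chr19:13981374-13981427, plus strand): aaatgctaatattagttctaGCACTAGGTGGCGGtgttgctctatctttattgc

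The next sequences belong to the 5 strongest interior summits that had a motif, and show the matches at strongly bound sites inside clusters. They were chosen for having a match: 3 of the 4 strongest interior summits have none and are left out here, and the last of the sites shown lies 95980 bp from the nearest receptor start. They use the same build, strand rule and capitals.
Interior, beside Olfr94 (chr17:37203796-37203849, minus strand): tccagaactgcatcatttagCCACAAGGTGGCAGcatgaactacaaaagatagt
Interior, between Olfr649 and Olfr650-ps1 (chr7:104199970-104200023, plus strand): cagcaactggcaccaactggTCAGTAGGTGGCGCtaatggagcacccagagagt
Interior, near Rnase12 and Olfr750 (chr14:51064939-51064992, minus strand): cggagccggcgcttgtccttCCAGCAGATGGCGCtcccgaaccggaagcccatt
Interior, beside Olfr71 (chr4:43712003-43712056, minus strand): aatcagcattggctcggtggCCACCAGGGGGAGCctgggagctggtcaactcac
Interior, in an intron of Gm30400 near Ccdc105 (chr10:78756167-78756220, plus strand): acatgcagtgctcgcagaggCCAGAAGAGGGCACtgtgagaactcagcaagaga

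CTCF summits were sparse inside the clusters and dense on both sides of them. The interiors held 4.92 summits per Mb of sequence outside assembly gaps (147 in 29.87 Mb, exact Poisson 95% interval 4.16 to 5.79), against 27.3 per Mb in the flanks (360 in 13.20 Mb, 24.5 to 30.2). The remaining autosomes held 17.2 per Mb. The density in the interiors was 0.180 times that in the flanks (exact conditional binomial interval 0.148 to 0.219) and 0.286 times that of the remaining autosomes (0.242 to 0.336). The flanks stood above the remaining autosomes by a factor of 1.585 (1.425 to 1.758). These intervals, and those below, cover counting error only, since neighbouring summits are not independent and the lists carry no error between technical replicates.

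Repeats, base composition and gene content differed between the same zones. Repeat-masked sequence made up 46.5% of the interiors, 33.2% of the flanks and 33.3% of the remaining autosomes, and GC content was 39.0%, 43.1% and 41.97% in the same zones. On unmasked sequence alone the densities were 7.76 summits per Mb in the interiors and 34.0 in the flanks. Protein-coding genes other than receptors numbered 4.29 per Mb in the interiors, 22.4 in the flanks and 8.18 on the remaining autosomes. The 128 such genes inside the clusters include OR5BS1P on chromosome 15, a receptor by its symbol that does not begin with Olfr. The share of the density difference that goes with each of these was not tested, and neither was how reads from near-identical receptor genes were aligned.

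The same direction was seen in most clusters taken singly. The interior density was below that of the cluster's own flanks in 30 of the 33 clusters. This counts direction only, since in many single clusters the intervals of interior and flanks overlapped. An example is Olfr16 to Olfr418 on chromosome 1 (0 to 11.4 against 4.06 to 29.2 per Mb). In the cluster from Olfr310 to Olfr292 on chromosome 7, with 18 receptor genes, neither the interior nor the flanks held a summit. The exceptions in the other direction were 2 clusters of 8 genes each. Between Olfr70 and Olfr155 on chromosome 4 there were 9 interior summits, or 55.3 per Mb, against 45.0 per Mb in its flanks. Between Olfr1416 and Olfr12 on chromosome 1 there were 3 interior summits, or 20.3 per Mb, against 17.5 per Mb in its flanks. The median over clusters was 2.77 summits per Mb in the interiors and 27.5 per Mb in the flanks.

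**Figure D1:**
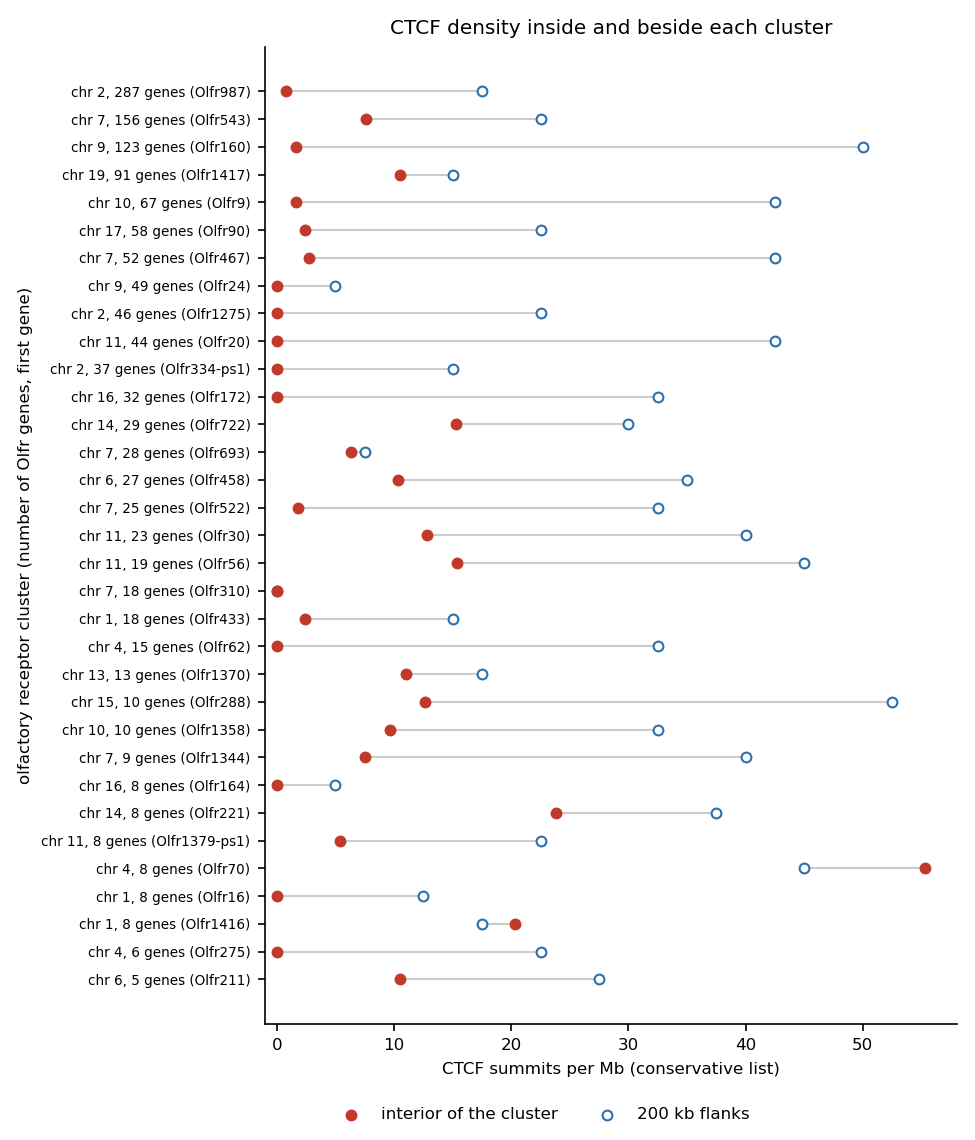
CTCF summits per Mb (horizontal axis) in the interior (filled red) and in the 200 kb flanks (open blue) of each of the 33 clusters, ordered by number of Olfr genes with the largest at the top; there is 1 value per zone and no error bar. The red point lies left of the blue one in 30 clusters and right of it in 2, both with 8 genes.

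The 5 clusters with the most genes differed widely in their interiors. The largest, from Olfr987 to Olfr1274-ps on chromosome 2 (85330779 to 90403897), holds 287 receptor genes and had 4 interior summits in 5.073 Mb, or 0.788 per Mb (0.215 to 2.02), against 7 flank summits, or 17.5 per Mb (7.04 to 36.1). A stretch of 2.047 Mb at its right end, with the starts of 94 receptor genes, had no summit. The cluster from Olfr160 to Olfr986 on chromosome 9 (37708964 to 40190134) had 4 summits among 123 genes, 1.61 per Mb, against 50 per Mb in its flanks. The cluster from Olfr9 to Olfr827 on chromosome 10 (128989431 to 130214403) had 2 summits among 67 genes, 1.63 per Mb, against 42.5 per Mb in its flanks. In these 3 clusters the interior interval lay wholly below that of the flanks.

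The other two of the 5 largest clusters carried 22 interior summits each. The cluster from Olfr543 to Olfr692 on chromosome 7 (102476579 to 105369355) holds 156 receptor genes and had 7.61 summits per Mb (4.77 to 11.5), against 22.5 per Mb (10.3 to 42.7) in its flanks. The cluster from Olfr1417 to Olfr1505 on chromosome 19 (11826803 to 13921866) holds 91 receptor genes and had 10.5 per Mb (6.58 to 15.9), against 15 per Mb (5.51 to 32.7) in its flanks. In each of these 2 clusters the intervals of the zones overlapped. They also held other protein-coding genes, 27 in the chromosome 7 cluster and 13 in the chromosome 19 cluster, against 7 in the largest cluster, 3 on chromosome 9 and 1 on chromosome 10.

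**Figure D2:**
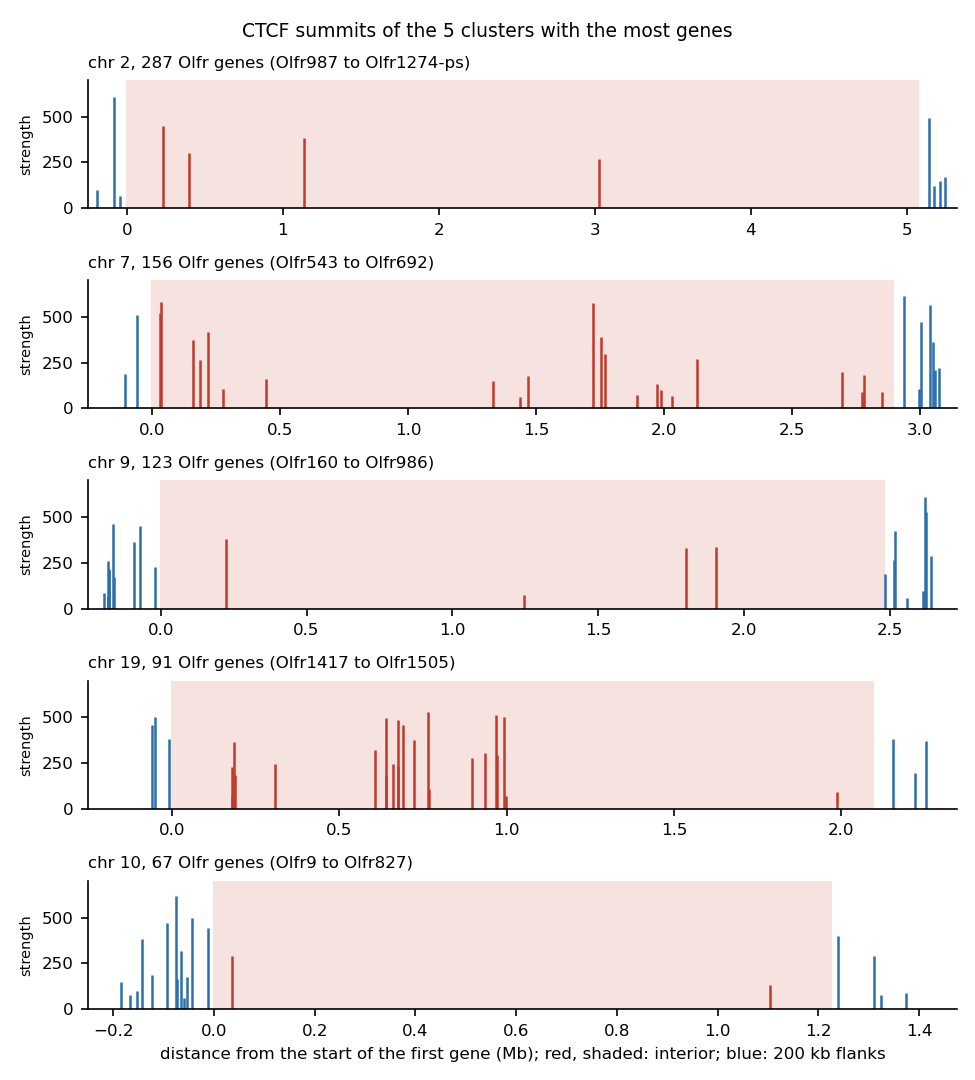
Positions of CTCF summits in the 5 clusters with the most Olfr genes, as distance in Mb from the first gene (horizontal) with line height giving the authors' peak strength (a score without stated scale). Red lines on shading are interior summits and blue lines are summits in the 200 kb flanks; the cluster of 287 genes has 4 interior lines, and the clusters of 156 and 91 genes have 22 each, gathered in groups with long gaps between.

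Even where interior summits were more frequent, long runs of receptor genes were free of them. The chromosome 7 cluster had a gap of 0.887 Mb over the starts of 60 receptor genes, and the chromosome 19 cluster a gap of 0.988 Mb over 55. The chromosome 9 and chromosome 10 clusters had fewer interior summits. Their longest gaps were 1.021 Mb with 56 receptor starts and 1.067 Mb with 59, in that order. Among clusters of 10 or more genes, the highest interior densities were in the cluster from Olfr56 to Olfr1380 on chromosome 11 (9 summits, 15.3 per Mb against 45.0 in its flanks) and in the cluster from Olfr722 to Olfr750 on chromosome 14 (18 summits, 15.3 per Mb against 30). The cluster from Olfr30 to Olfr311 on chromosome 11 followed with 5 summits, or 12.8 per Mb against 40.0.

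At the other end, 10 clusters with 263 receptor genes in 6.726 Mb had no interior summit. The largest of them were Olfr24 to Olfr18 on chromosome 9 (49 genes, interval up to 2.33 per Mb), Olfr1275 to Olfr1319-ps1 on chromosome 2 (46 genes, up to 3.93) and Olfr20 to Olfr412 on chromosome 11 (44 genes, up to 3.63). Their flanks held 2, 9 and 17 summits in the same order. The interior summits were unevenly spread: the 4 clusters richest in them held 73 of the 147, or 49.7%.

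The interior summits lay mostly where other genes interrupt the receptor genes. The split of the interiors by such genes was chosen after the values had been seen, so it is a description. Between consecutive receptor genes, 48 stretches held the start of another protein-coding gene. These had 89 summits in 4.449 Mb, or 20.0 per Mb (16.1 to 24.6), but 29 of the 48 had no summit. The 1236 stretches without another coding gene start had 43 summits in 17.77 Mb, or 2.42 per Mb (1.75 to 3.26). Of these stretches, 1196 had no summit. Receptor gene bodies held 15 summits in 7.647 Mb, or 1.96 per Mb (1.10 to 3.24). The density in stretches with another gene was 8.27 times that in stretches without (5.68 to 12.2). Leaving OR5BS1P out of the other coding genes left every one of these stretches in its class. Its own body was not moved to the receptor gene bodies. The density in stretches with another gene was 0.733 times that of the flanks (0.575 to 0.927), and the density in receptor-only stretches was 0.0887 times that of the flanks (0.0631 to 0.122). By whole clusters, the 11 without another coding gene had 10 summits in 5.640 Mb (1.77 per Mb), and 7 of them had none, against 137 summits in 24.23 Mb for the 22 clusters with such genes.

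The change in density fell at the outer genes of the clusters. All bins of 50 kb from 500 kb outside up to the outer gene had 23.1 to 30.9 summits per Mb. The first 50 kb inside had 8.80 per Mb (29 summits, 5.89 to 12.6), against 26.4 per Mb (87 summits, 21.1 to 32.5) in the first 50 kb outside. The outside density was thus 2.996 times the inside density (1.948 to 4.732). Further in, the values were 4.02 to 11.4 per Mb up to 300 kb and 0.833 to 1.57 per Mb from 300 to 500 kb. The inner bins rest on few clusters: 66 edges contributed to the first bin and 24 to the last, where the summits numbered 1.

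**Figure D3:**
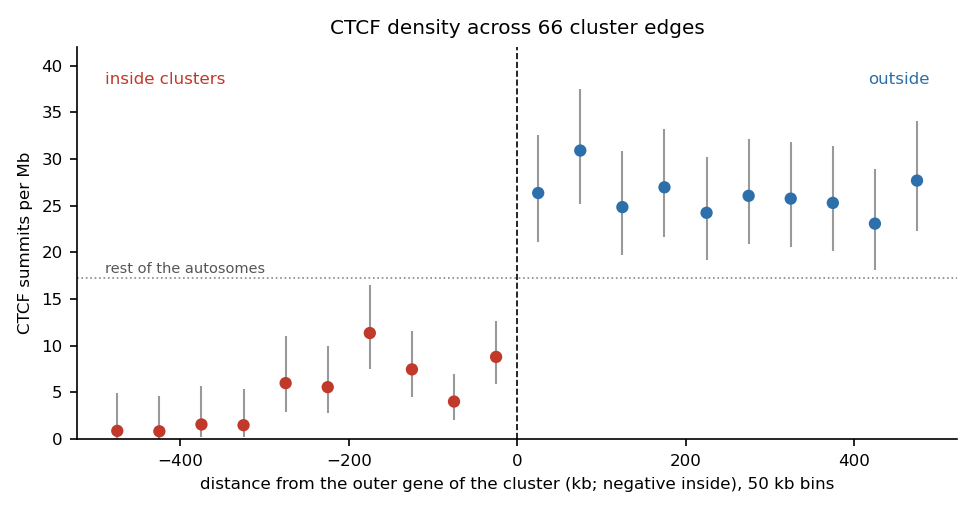
CTCF summits per Mb (vertical axis) in 50 kb bins by distance from the outer gene, over both edges of the 33 clusters, with negative distances inside (red) and positive ones outside (blue); bars are exact Poisson 95% intervals and the dotted line is the density of the remaining autosomes. All inner points lie below the dotted line and all outer points above it, with 8.80 per Mb in the last inner bin and 26.4 in the first outer one.

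At single edges the nearest summit was usually on the outer side. The distance from the outer gene to the nearest summit had a median of 153.5 kb inward (quartiles 45.4 and 566.8 kb), against 27.7 kb outward (12.04 and 70.3 kb). In the 10 clusters without an interior summit, the inward distance runs through the cluster to a summit beyond its far end. The outward summit was the nearer at 53 of the 66 edges. A summit lay within 50 kb inward at 18 edges and within 50 kb outward at 43. Both flanks held at least 1 summit in 27 of the 33 clusters.

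The edge summits shown by sequence above varied in strength and motif. Strength is the authors' score for a peak, with no stated scale. It is used to order and summarise peaks within a list. A later paragraph also gives the log2 of the first over the second input of the ranked list, as a description only. At the chromosome 7 cluster the right-edge summit, 42.7 kb beyond the last gene, had a strength of 616.2 and a motif without mismatch. It lay 7510 bp from the start of Cnga4, which encodes a subunit of the olfactory cyclic-nucleotide-gated channel. At the cluster of 287 genes the right edge had a summit of strength 492.2 with a motif without mismatch, 71.02 kb out, and the left edge one of strength 65.31 with 2 mismatches, 46.8 kb out. The nearest of these edge summits to a receptor cluster lay 2.523 kb beyond the right end of the chromosome 9 cluster and had a strength of 187.4. The 9 strengths covered 65.31 to 616.2, and 3 of the 9 motifs had no mismatch.

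The motifs nearest to the cluster edges pointed toward the cluster about as often as away from it. CTCF motifs in convergent orientation are the usual form at paired loop anchors, so each edge was classed by whether the nearest motif-bearing flank summit pointed toward the cluster. This was so at 27 of 58 edges with such a summit, or 46.6% (Wilson 95% interval 34.3 to 59.2%). Among the 26 clusters with such a summit at both edges, 7 pairs were convergent, 7 divergent and 12 tandem. Over all motif-bearing flank summits, 123 of 280 pointed toward the cluster (43.9%, 38.2 to 49.8%), an interval that ends just below 50%. By distance the counts were 33 of 74 within 50 kb, 28 of 79 from 50 to 100 kb, 25 of 59 from 100 to 150 kb and 37 of 68 from 150 to 200 kb. Inside the clusters, 54 of 122 motifs lay on the plus strand (44.3%, 35.8 to 53.1%).

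Whether the share of summits with the CTCF motif differed between interiors and flanks depended on the mismatches allowed. A match (no more than 2 mismatches, centred 50 bp or less from the summit) was found at 122 of 147 interior summits (83.0%, 76.1 to 88.2%), against 280 of 360 flank summits (77.8%, 73.2 to 81.8%). The share over all autosomal summits was 77.6%. Interior minus flank, the difference was 5.22 percentage points, and its Newcombe 95% interval (-2.75 to 12.2) included 0. With no more than 1 mismatch the shares were 58.5% (50.4 to 66.2%) in the interiors and 44.2% (39.1 to 49.3%) in the flanks, a difference of 14.3 points (4.75 to 23.5). Windows of the same length displaced by 2000 bp to either side of the summit held a match in 1.70% of cases for interior summits. For flank summits the share was 3.61%. The interior motifs comprised 18 without mismatch, 68 with 1 and 36 with 2, against 46, 113 and 121 in the flanks, so matches with 2 mismatches made up a smaller part inside.

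Matches to the consensus were present inside the clusters, and a smaller share of them had a summit. Counting matches with 0 or 1 mismatch whether bound or not, the interiors held 612, or 20.5 per Mb, against 406, or 30.8 per Mb, in the flanks and 25.6 per Mb on the remaining autosomes. A summit lay within 50 bp of 86 of the interior matches (14.1%, 11.5 to 17.0%), against 162 of the flank matches (39.9%, 35.3 to 44.7%). Over all autosomal matches the share was 30.6%. The intervals of the interiors and the flanks did not overlap.

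Exact matches were also sparser inside the clusters. The interiors held 28, or 0.938 per Mb, and 18 of them had a summit (64.3%, 45.8 to 79.3%). The flanks held 55, or 4.17 per Mb, and 46 of them had one (83.6%, 71.7 to 91.1%). The difference was -19.4 percentage points, and its Newcombe interval (-39.3 to -0.197) ended close to 0. With 1 mismatch the shares were 11.6% (9.29 to 14.5%) in the interiors and 33.1% (28.3 to 38.1%) in the flanks. Within the interiors, 49 of 130 matches with 0 or 1 mismatch had a summit in stretches with another coding gene start (37.7%, 29.8 to 46.3%). Among the receptor genes and the stretches between them, the count was 37 of 482 (7.68%, 5.62 to 10.4%).

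**Figure D4:**
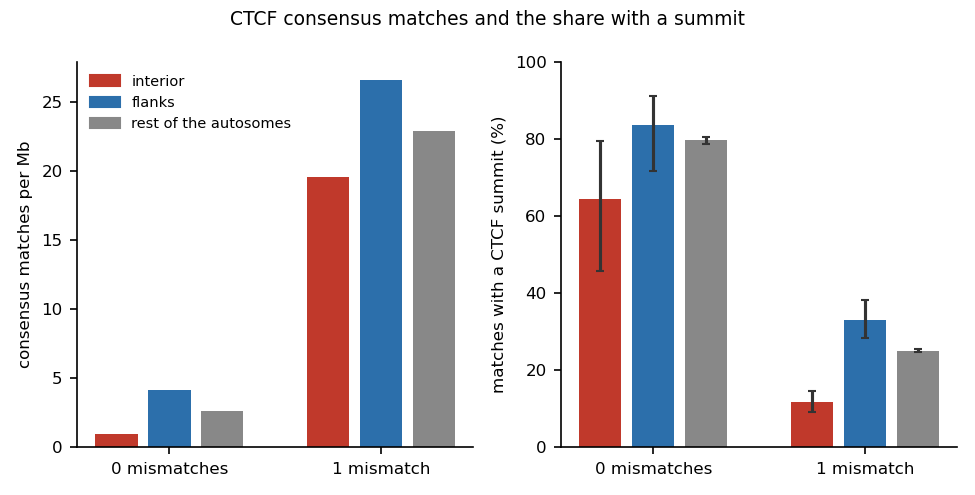
Matches to the CTCF core consensus per Mb (left) and the share of them with a summit within 50 bp (right, %, bars are Wilson 95% intervals) in the interiors (red), the flanks (blue) and the remaining autosomes (grey), for 0 mismatches and 1 mismatch. For 1 mismatch the share is 11.6% inside and 33.1% in the flanks with separate intervals, and for 0 mismatches it is 64.3% inside and 83.6% in the flanks with intervals that overlap.

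Receptor genes rarely had CTCF near their starts. Only 34 of the 1345 clustered Olfr genes had a summit 5000 bp or less from their start (2.53%, 1.82 to 3.51%). The share over all autosomal protein-coding genes was 38.2%. Other protein-coding genes inside the clusters had one at 25 of 128 starts (19.5%, 13.6 to 27.2%), and those in the flanks at 107 of 295 (36.3%, 31.0 to 41.9%). Within 1000 bp the count was 5 of the clustered Olfr genes (0.372%) and 13 of the other coding genes inside (10.2%), against 46 in the flanks (15.6%).

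The distance from a gene start to the nearest summit ordered the same gene groups. Its median was 150.2 kb for clustered Olfr genes (quartiles 49.2 and 358.0 kb), 20.96 kb for other coding genes inside and 9.999 kb for those in the flanks, against 9.39 kb over all autosomal coding genes. The receptor start farthest from any summit was that of Olfr136 on chromosome 17, at 1079 kb, next to Olfr762-ps1 at 1064 kb and Olfr137 at 1057 kb. Receptor genes are near-identical in places and share summits with neighbours, so these genes are not independent of each other.

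**Figure D5:**
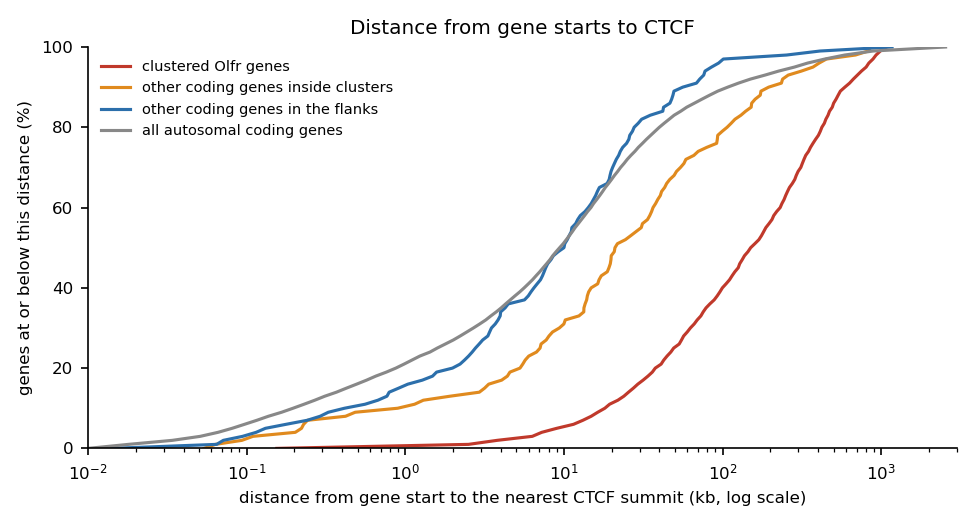
Share of genes (vertical, %) whose start lies within a given distance of a CTCF summit (horizontal, kb, log scale), for clustered Olfr genes (red), other protein-coding genes inside clusters (orange), those in the flanks (blue) and all autosomal protein-coding genes (grey). The red curve is shifted to the right, with a median of 150.2 kb against 20.96, 9.999 and 9.39 kb.

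The summits close to receptor starts included some of the strongest peaks of the set, but their strengths ranged from 52.82 to 649.2. The strongest interior summit, at 37203817 on chromosome 17, had a strength of 649.2 and rank 32 in the conservative list, and lay 2823 bp upstream of Olfr94. Its strengths in the first and second input of the ranked list were 366.3 and 282.7. The summit at 104200014 on chromosome 7 (strength 575.5) lay upstream of both Olfr649, by 4029 bp, and Olfr650-ps1, by 3423 bp. The summit at 43712047 on chromosome 4 (546.1) lay 1792 bp upstream of Olfr71. The fourth, at 43763640 on the same chromosome (476.9), lay 4137 bp downstream of the start of the pseudogene Olfr269-ps1, and the fifth, at 6434756 on chromosome 7 (421.0), 3932 bp upstream of Olfr1344, the first gene of its cluster and so in its left flank.

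The next 3 interior summits in strength had no motif match within 50 bp. They lay 201 bp upstream of Chd8 on chromosome 14 (52257981, strength 595.6), between receptor genes on chromosome 7 (102513274, 580.9), 8057 bp from the start of Olfr546-ps1, and 54 bp upstream of Ttc5 on chromosome 14 (50785573, 575.8). Chd8 encodes a chromatin-remodelling helicase, and Ttc5 a protein that takes part in the decay of tubulin mRNA. Most of the other strong interior summits lay by genes that are not receptors. The summit at 51064975 on chromosome 14 (560.3), with an exact motif, lay 7314 bp from Rnase12, and that at 78756186 on chromosome 10 (539.9) lay 3121 bp upstream of Ccdc105. Those at 42645477 (539.1) and 42583710 (537.1) on chromosome 6 lay 223 bp from Tcaf2 and 13982 bp from Tcaf3, and Tcaf2 encodes a regulator of the cold-sensing channel TRPM8. Of the other coding genes inside clusters, Chd8, Ttc5, Ccdc105 and Tcaf2 had the strongest summits within 5000 bp, next to Lpxn (leupaxin, a focal-adhesion adaptor) and Zfp91 (a zinc-finger ubiquitin ligase), which share a summit of strength 513.6 on chromosome 19.

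The strongest flank summits were spread over several clusters. The first, of strength 629.1 at 78413115 on chromosome 10, was 72 bp from the start of Rrp1, a ribosome-biogenesis gene, and 104313 bp from the first receptor gene, Olfr1358. The second, of strength 619.8 at 128913415 on chromosome 10, had an exact motif and lay 9473 bp from Rdh5, a retinol dehydrogenase gene. The right-edge summit of the chromosome 7 cluster (616.2) was the third. The other 7 had strengths of 596.0 to 613.2, and of all 10 only the summit of strength 605.2 at the promoter of Ccin on chromosome 4 had no motif match. The one within 30 kb of a cluster that had an exact motif lay 29.08 kb beyond Olfr1319-ps1 on chromosome 2, with a strength of 598.2.

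Peak strength overlapped widely between the zones. The median was 251.4 in the interiors (quartiles 135.5 and 417.6), 287.4 in the flanks (125.2 and 453.2) and 246.6 on the remaining autosomes (116.2 and 435.1). Among summits with a motif the median was 273.6 in the interiors and 355.1 in the flanks, and among those without one it was 167.5 in the interiors and 145.8 in the flanks. The strongest 10% of the conservative list took in 12 interior summits (8.16%, 4.73 to 13.7%) and 41 flank summits (11.4%, 8.51 to 15.1%). The share over all autosomal summits was 10.2%. The log2 of the strength in the first input over that in the second had a median of 1.04 in the interiors (SD over 147 peaks 0.36) and 0.99 in the flanks (SD over 360 peaks 0.41).

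Interior summits were more often between genes than flank summits. By annotation, 79 interior summits were intergenic (53.7%, 45.7 to 61.6%), against 136 in the flanks (37.8%, 32.9 to 42.9%) and 34.4% on the remaining autosomes. Introns held 32 interior summits (21.8%) and 136 flank summits (37.8%), against 44.5% on the remaining autosomes. Sites within 1000 bp of a gene start were 21 of the interior summits (14.3%) and 56 of the flank summits (15.6%), against 14.2% on the remaining autosomes. Exons held 15 (10.2%) of the interior and 32 (8.89%) of the flank summits, against 6.84% on the remaining autosomes. The share of each zone's sequence in these classes was not set beside these counts. Other coding genes numbered 4.29 per Mb in the interiors and 22.4 in the flanks, and whether the differences follow the sequence available was not tested. The nearest protein-coding start was that of a receptor gene for 76 interior summits (51.7%, 43.7 to 59.6%) and 37 flank summits (10.3%, 7.55 to 13.9%). The coding genes inside the clusters were 1091 receptor genes and 128 others, so the interior share lay below the part that receptor genes made up there. For the other 71 interior summits the nearest start was that of another gene, at a median of 6.916 kb. Only 5 interior summits lay within 1000 bp of a receptor start.

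The interior density was below that of the flanks in both pool lists. The pool E list had 177 summits in the interiors and 423 in the flanks, a density ratio of 0.185 (0.154 to 0.221). The pool F list had 122 and 290, a ratio of 0.186 (0.149 to 0.230). In the pool E list the interior density was below that of the flanks in 32 clusters and above it in none, and in the pool F list below in 29 and above in 3. Of the interior peaks in the conservative list, 134 had a partner at 50% reciprocal overlap in the pool E list (91.2%, 85.5 to 94.8%), against 308 of the flank peaks (85.6%, 81.6 to 88.8%). The share over all autosomal peaks was 87.7%. For pool F the counts were 102 interior peaks (69.4%, 61.5 to 76.3%) and 247 flank peaks (68.6%, 63.6 to 73.2%), and the share over all autosomal peaks was 66.2%. The pool lists draw on the same reads as the conservative list, so they are not independent of it.

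Before the threshold on reproducibility the contrast was smaller. The ranked list, which holds candidates before a threshold on the irreproducible discovery rate (IDR), had 458 candidate summits in the interiors (15.3 per Mb), against 789 in the flanks (59.8 per Mb), a ratio of 0.257 (0.228 to 0.288). At an IDR of 0.05 or less, 147 of the interior candidates passed (32.1%, 27.98 to 36.5%), against 360 of the flank candidates (45.6%, 42.2 to 49.1%). The share over all autosomal candidates was 41.2%.

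The globin genes lie within the chromosome 7 cluster, and 1 CTCF summit lay close to them. The 5 Hbb genes, which encode beta-like globins, have odorant receptor genes on either side. From 50 kb before the first to 50 kb after the last of them there was 1 summit, at 103807080 (strength 151.7, motif with 2 mismatches), 6916 bp from the start of Hbb-bt. The next summit, at 103913187 (strength 62.71), lay just beyond this window. With 1 summit in so short a window, a difference from the 7.61 summits per Mb of the whole cluster cannot be told. The summit at 103807080 ended the long gap described above for this cluster.

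Genes of olfactory signalling and receptor choice had a summit close by at a larger share of starts than the receptor genes. Of 28 autosomal genes listed, 16 had a summit within 5000 bp (57.1%, 39.1 to 73.5%), against 38.2% of all autosomal protein-coding genes. Leaving out the Olfr genes, the share over autosomal coding genes was 40.3%, which lies within the interval for the listed genes. The list was drawn up with earlier results of these data known. The strongest was at Kdm1a, a histone demethylase gene needed for receptor choice (576.3, 132 bp upstream). Next were Pde4a (530.8), encoding an enzyme that breaks down cyclic AMP, and Ebf4 (528.8), encoding a transcription factor of the Olf/Ebf family. Emx2, a homeobox gene (518.0), and Stoml3, which encodes a stomatin-like protein of olfactory cilia (467.4), followed. The genes without a summit within 5000 bp included Adcy3, the adenylyl cyclase of olfactory cilia, Lhx2 (nearest summit at 39251 bp) and Ldb1 (8504 bp), whose products assemble receptor enhancers, and Rtp1 and Rtp2, which carry receptors to the cell surface.

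Clusters of a second chemoreceptor family and of keratin genes had the same direction of contrast. The Vmn1r genes, which encode vomeronasal receptors, formed 10 clusters of 308 genes with 1.21 interior summits per Mb (13 summits, 0.645 to 2.07), against 21.5 per Mb (17.2 to 26.6) in their flanks, a ratio of 0.0563 (0.0288 to 0.102). The Krt clusters (4 clusters, 107 genes) had 17.4 per Mb (12.9 to 23.0) in the interiors, against 54.4 per Mb (43.6 to 67.1) in their flanks, a ratio of 0.320 (0.221 to 0.460). The ratio for the odorant receptor clusters, 0.180 (0.148 to 0.219), lay between them. Its interval ended just below that of the Krt clusters (0.219 against 0.221), and it ended above that limit under some alternatives, such as the pool F list (0.230) and unmasked sequence (0.282), so the order against the Krt clusters is not settled; no alternative was run for Vmn1r or Krt. None of these summits was shared with the odorant receptor set.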

How the data were processed

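CTCF ChIP-seq peak lists were analysed; reads were not. Per the notes deposited with the samples, technical replicates were merged into 1 alignment per pool, with 1 control alignment, and peaks were filtered by IDR. Per the labels the assembly was mm10 and fragments of 200 to 600 bp were selected; which aligner and which peak caller were used is not given in the sources used here. The authors deposited a score for each peak, called strength here, without stating its scale. The ranked list holds the −log10 of the IDR that the authors deposited. Read depth was unknown, since the lists hold no read counts, so the precision of single peaks cannot be given.

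A summit was the peak start plus the deposited offset. Gene positions came from GENCODE M21 and sequence from RefSeq GRCm38; all peaks and genes fell within its chromosome lengths. Density is summits per Mb outside assembly gaps. The motif was the 14-base CTCF core consensus, searched on both strands. Intervals are 95% (Wilson, exact Poisson, exact conditional binomial, or Newcombe for differences of shares). No hypothesis test was made. Clustering, motif search and intervals were tested on simulated data. The text names the 5 largest clusters, the 3 highest and 3 lowest in interior density among those with 10 or more genes, the 10 strongest summits in each zone, the 5 strongest near a receptor start, the edge motifs of the 5 largest clusters, and the 5 strongest other genes inside and pathway genes; sequences were to come from the 5 strongest interior summits and were taken from the 5 strongest with a motif. Members and lists were chosen with earlier results of these data known. Alternatives covered chaining, cluster size, flanks, masking, lists, motif settings and overlap. Versions were Python 3.11.15, numpy 2.4.6, pandas 2.3.3, scipy 1.17.1 and bedtools 2.31.1.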

Additional observations from a re-analysis of the deposited data

How the results depend on the processing

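The interior stayed below the flanks under all 18 alternatives for the density ratio, whose value was 0.180 as reported. It was 0.134 with chaining at 250 kb (35 clusters), 0.272 with chaining at 1000 kb (30 clusters) and 0.228 on unmasked sequence only. With the interior limited to stretches between receptor genes it was 0.0887, and with stretches that hold another coding gene start 0.733. Both were chosen after seeing the data. So was leaving OR5BS1P out of the other coding genes, which gave the same 2 values. The other 11 alternatives moved it by less than its interval.

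The motif share of interior summits was 58.5% at 1 mismatch, against 44.2% in the flanks, with separate intervals. Among summits above the median strength of the list it was 89.3% (80.3 to 94.5%), an interval that holds the 89.9% of the flanks, so no difference between the zones was seen there. The share of matches with a summit was 64.3% for 0 mismatches and 1.07% for 2 mismatches, against 83.6% and 4.70% in the flanks. Edges pointing toward the cluster ranged from 38.2% to 50.9% over 5 alternatives. Interior peaks with a partner in the pool E list were 97.3% at a 1 bp overlap, against 95.6% of flank peaks. At 80% reciprocal overlap they were 79.6%, against 75.0% in the flanks. For pool F the interior shares were 81.6% and 9.52% in the same order, against 80.3% and 8.06% in the flanks. Clustered receptor genes with a summit were 0.372% within 1000 bp and 11.3% within 20000 bp, against 21.1% and 67.1% of all autosomal coding genes. The cause of these changes was not tested beyond the wider or narrower setting itself.

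No paired analysis was possible because every list merges the technical replicates and no test was made, so leaving out single replicates was not run either. Depth is unknown, intervals cover counting error only, and peaks in receptor genes depend on how reads of near-identical copies were aligned, for which no values were at hand.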
